A study of Mus musculus with 10 samples.

Results

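Ccl2, its neighbouring monocyte chemokine genes Ccl7, Ccl8 and Ccl12, and Ccr2, the receptor that CCL2 signals through, were examined in kidneys lacking Lkb1 in the tubules. The 5 genes were the rows of the deposited table whose platform annotation gave one of these symbols alone, and each had 1 row, out of 30743 named genes. CCL2, also called MCP-1, is a secreted protein that draws monocytes out of the bone marrow and into tissue, where they become macrophages. CCL7 and CCL12 act on the same receptor, and mouse CCL8 has been described as a ligand of CCR8. In the kidney, CCL2 is known to be made by injured tubule cells and by endothelial cells, fibroblasts and macrophages, while CCR2 is carried by inflammatory monocytes and some of their descendants.

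RNA from whole kidneys of 5-week-old mice was measured, with 1 array for each of 10 mice. The 5 knockout mice came from a cross of Lkb1 flox/flox mice (Stk11tm1.1Sjm) with KspCre mice, which express Cre recombinase from the Cdh16 promoter, active in kidney tubules. The 5 controls were littermates with Lkb1 flox/+ or Lkb1 flox/flox and no KspCre transgene, so only knockouts carried Cre, and effects of Cre and of Lkb1 loss cannot be told apart. The titles call the first group STK11_KD and the condition field a knockdown, but the growth protocol describes a knockout, and that term is used here. The strain field reads C57Bl/6N, although the floxed line is described as being of mixed background.

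The series title ties Lkb1 to inflammation, and the comparison asks whether these genes differ between knockout and control kidneys. Stk11, which encodes Lkb1, was lower in the 5 knockouts (9.07 to 9.31) than in the 5 controls (9.40 to 9.48), and its adjusted p was 0.00767 by limma. This is a partial reduction over a whole kidney and a whole transcript. As a check of the tissue, the proximal tubule receptor gene Lrp2 exceeded 99.7% of the negative control rows in knockouts and 99.8% in controls. Lrp2 was itself lower in knockouts, with a knockout minus control difference of -0.21 (adjusted p = 0.012 by limma). Array medians ran from 5.35 to 5.42, and correlations between arrays over all genes from 0.992 to 0.998. In whole tissue, more cells of a type and more RNA per cell cannot be told apart.

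Of the 5 genes, Ccl2, Ccl12 and Ccr2 rose in the knockouts, none fell, and Ccl7 and Ccl8 did not pass the test. The Ccl12 values lay below the median of the array's negative control rows in both groups, so that gene was not measured above background. Over all genes, 5.22% rose and 2.67% fell at an adjusted p under 0.05. Knockout and control values did not overlap for the 3 genes that rose, while 5.00% of all genes had every knockout above every control. All values below are RMA expression values on the log2 scale, and differences are knockout minus control. The median difference over all genes was -0.03.

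The arrays place these genes close to background. Each array carries 5222 negative control rows, whose median lay between 5.10 and 5.37, and the share of those rows that a value exceeds says how far it stands from them. Of the 5 genes, Ccl2 alone lay above that median on all 10 arrays. It exceeded 68.8% to 73.1% of the negative control rows in knockouts, against 55.8% to 65.2% in controls. Ccl8 and Ccl12 lay below the median on all 10 arrays, and Ccl7 lay above it in 2 of 5 knockouts and 2 of 5 controls. Ccr2 lay above it in 4 of 5 knockouts and 0 of 5 controls. A group that does not exceed 50% of these rows gives only a bound on a level, so fold changes are stated for Ccl2 and, as a bound, for Ccr2. Signal this dim can compress differences, and no level is compared between genes.

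**Figure D1:**
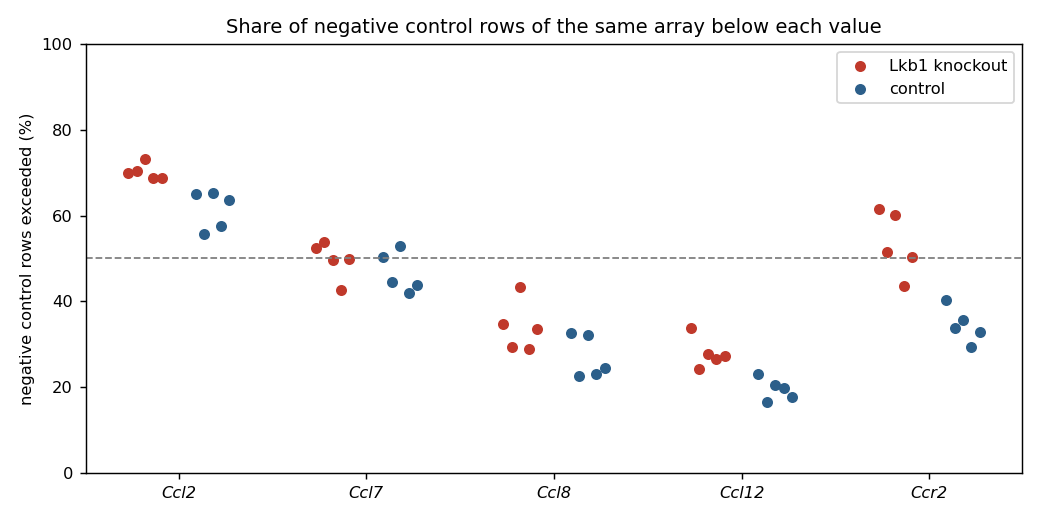
Share of the negative control rows of the same array (%, vertical axis) that each value exceeds, for 5 Lkb1 knockout kidneys (red, left of each pair) and 5 control kidneys (blue). The dashed line marks 50%. Ccl2 lies above the line in every kidney, Ccl8 and Ccl12 below it in every kidney, and Ccr2 crosses it in 4 of 5 knockouts.

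Ccl2 lies on chromosome 11 at 82035577 to 82037452 (GRCm38, the RefSeq form of the mm10 build). Its values in knockouts 1 to 5 were 6.02, 6.18, 6.26, 6.00 and 6.01, against 5.81, 5.61, 5.76, 5.58 and 5.84 in controls 1 to 5. Every knockout was above every control, with a gap of 0.15 between the lowest knockout and the highest control. The difference was 0.37 (SE 0.07, 95% interval 0.22 to 0.52, adjusted p = 0.00754 by limma), which is 1.29-fold. The exact permutation p, two-sided, was 0.00794, the smallest that 5 against 5 allows. The spread of Ccl2 was alike in the groups (SD 0.12 in knockouts and 0.12 in controls).

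Ccl7, whose product CCL7 (MCP-3) also attracts monocytes through CCR2, is the nearest neighbour of Ccl2, with 8259 bases between them, at 82045712 to 82047525. Its values were 5.25, 5.47, 5.24, 4.88 and 5.22 in knockouts, against 5.17, 5.13, 5.21, 4.92 and 4.99 in controls. The groups overlapped: 4 knockouts lay above every control, and knockout 4 was the lowest of all 10 kidneys. The difference was 0.13 (SE 0.10, 95% interval -0.08 to 0.33, adjusted p = 0.452 by limma, exact permutation p = 0.254). The interval allows a difference close to that of Ccl2. Ccl7 had a difference of 0.21 without knockout 4 and 0.06 without knockout 2, with adjusted p of 0.138 and 0.751 by limma.

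Ccl12, which encodes the rodent chemokine MCP-5, lies at 82101845 to 82103399. Its values were 4.42, 4.09, 4.29, 4.13 and 4.19 in knockouts, against 3.90, 3.72, 3.70, 3.80 and 3.71 in controls. The groups did not overlap, and the gap between the lowest knockout and the highest control was 0.20. The difference was 0.46 (SE 0.07, 95% interval 0.32 to 0.60, adjusted p = 0.00158 by limma, exact permutation p = 0.00794). Both groups lay below most of the negative control rows, with 27.9% of them exceeded in knockouts and 19.5% in controls. Ccl12 was thus not measured above background, and no fold is given. Of the 10815 genes whose control values exceeded under 50% of the negative control rows, 1.17% rose, and Ccl12 and Ccr2 are among those.

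Ccl8, which encodes MCP-2, follows Ccl12 on the chromosome with 11785 bases between them, at 82115185 to 82116799. Its values were 4.45, 4.37, 4.98, 4.24 and 4.51 in knockouts, against 4.38, 4.07, 4.30, 4.00 and 4.11 in controls. Knockouts 1, 3 and 5 lay above every control, and knockouts 2 and 4 lay within the control range. The difference was 0.34 (SE 0.12, 95% interval 0.07 to 0.60) and did not pass (adjusted p = 0.116 by limma, unadjusted p = 0.0163, exact permutation p = 0.0397). It was 0.22 without knockout 3, the highest of the 10 kidneys for this gene (adjusted p = 0.177 by limma).

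**Figure D2:**
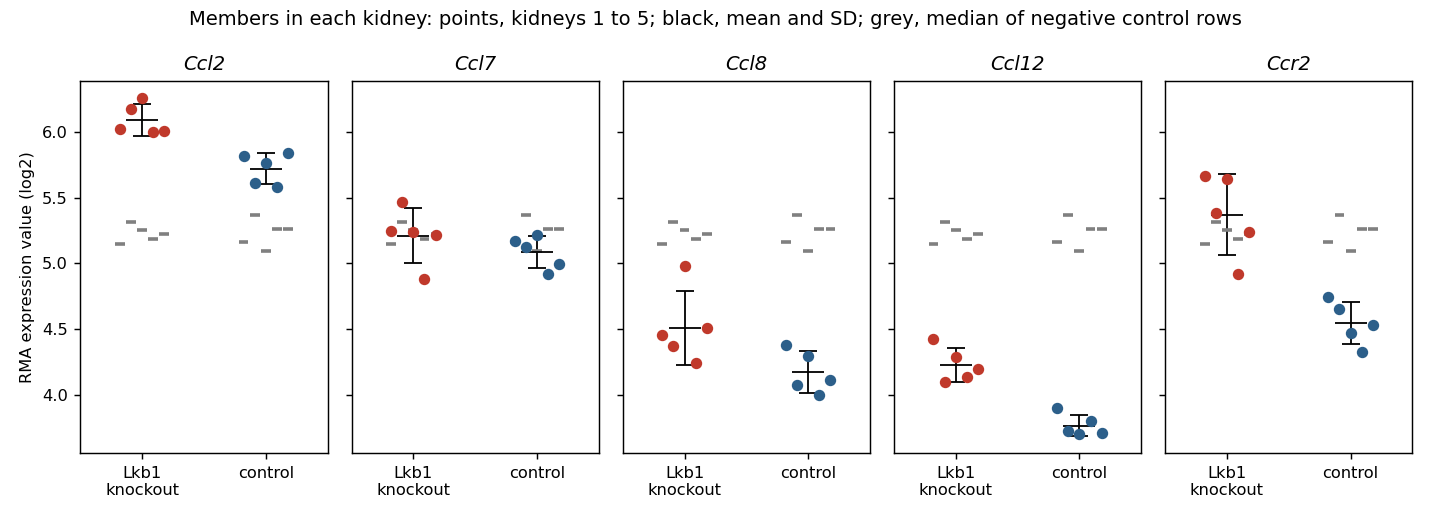
RMA expression values (log2, vertical axis) of the 5 genes in 5 Lkb1 knockout kidneys (red) and 5 control kidneys (blue). Black marks show the mean and SD, and grey ticks the median of the negative control rows on the array of the same kidney. The groups do not overlap for Ccl2, Ccl12 and Ccr2, and they overlap for Ccl7 and Ccl8.

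The windows around the start sites of Ccl12 and Ccl8 are shown because these neighbours, both dim, fell on either side of the threshold. They are RefSeq sequences of GRCm38.p6, plus strand, 5′ to 3′, from 250 bases before to 50 bases after the start site, at chr11:82101595-82101894 for Ccl12 and chr11:82114935-82115234 for Ccl8, with matches to the searched motifs in capitals.
Ccl12: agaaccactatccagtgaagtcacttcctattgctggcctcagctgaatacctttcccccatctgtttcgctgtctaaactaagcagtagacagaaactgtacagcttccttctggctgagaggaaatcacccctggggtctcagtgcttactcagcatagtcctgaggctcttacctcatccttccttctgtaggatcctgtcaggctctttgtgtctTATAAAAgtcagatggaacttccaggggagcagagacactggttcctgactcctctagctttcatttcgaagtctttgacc
Ccl8: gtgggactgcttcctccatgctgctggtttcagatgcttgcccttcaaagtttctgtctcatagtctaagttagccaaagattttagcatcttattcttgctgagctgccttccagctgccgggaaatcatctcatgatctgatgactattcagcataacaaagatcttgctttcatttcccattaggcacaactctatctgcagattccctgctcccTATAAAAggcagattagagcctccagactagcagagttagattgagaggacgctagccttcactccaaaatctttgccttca
Both windows hold the TATA box letters TATAAAA, which begin at position -31 in Ccl12 and -32 in Ccl8, and which 5.48% of 32851 promoter windows hold on either strand. A global alignment gave 159 identical bases among 292 aligned bases (54.5%). Neither window held the AP-1 form TGANTCA or the GAS form TTCNNNGAA on either strand, which 7.81% and 8.30% of all windows hold, and the motifs do not overlap here. The absence says only that these letters are not in these windows.

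Ccr2 lies on chromosome 9 at 124101918 to 124109140, in a cluster of chemokine receptor genes. Its values were 5.66, 5.39, 5.65, 4.92 and 5.24 in knockouts, against 4.75, 4.65, 4.47, 4.33 and 4.53 in controls. Every knockout was above every control, although knockout 4, the lowest knockout, stood 0.17 above control 1, the highest control. The difference was 0.83 (SE 0.13, 95% interval 0.54 to 1.11, adjusted p = 0.00276 by limma, exact permutation p = 0.00794), rank 165 of 30743 genes from the highest. With control values raised to the median of their array's negative control rows, the knockouts were at least 1.10-fold higher. The differences of Ccl12, Ccl2, Ccl8 and Ccl7 had ranks 522, 776, 924 and 3638.

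The 5 genes did not order the knockout kidneys in the same way. Ranked among the 10 kidneys for each gene with 1 as the highest, knockouts 1 to 5 had mean ranks of 2.0, 3.2, 1.8, 6.2 and 3.4, and controls 1 to 5 had mean ranks of 5.8, 8.0, 7.6, 9.2 and 7.8. Knockout 3 was the highest kidney for Ccl2 and Ccl8, knockout 1 for Ccl12 and Ccr2, and knockout 2 for Ccl7. Knockout 4 was the lowest knockout for Ccl2, Ccl7, Ccl8 and Ccr2, and knockout 2 for Ccl12. Among the control kidneys, control 4 was lowest for Ccl2, Ccl7, Ccl8 and Ccr2.

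The SD of the 5 values was larger in knockouts than in controls for 4 of the 5 genes. Whether the spread differs between the groups was not tested. The ratio of the knockout SD to the control SD was 1.91 for Ccr2, 1.77 for Ccl8, 1.72 for Ccl7, 1.58 for Ccl12 and 0.99 for Ccl2, with a median of 0.97 over all genes. As a description over the 10 kidneys, deviations from the group means correlated at r = 0.68 between Ccl2 and Ccl8 and at r = 0.65 between Ccl8 and Ccr2. They correlated at r = -0.01 between Ccl2 and Ccl12 and at 0.04 between Ccl7 and Ccl12. For Ccl12 they correlated at 0.64 with Ccr2 and 0.42 with Ccl8. The other pairs were Ccl7 and Ccr2 (0.64), Ccl2 and Ccr2 (0.48), Ccl2 and Ccl7 (0.46), and Ccl7 and Ccl8 (0.41). These points share the array and its normalisation.

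The other genes of the Ccl2 cluster did not pass. Ccl11, which encodes the eosinophil chemokine eotaxin and lies between Ccl7 and Ccl12, ranged from 6.02 to 6.43 in knockouts, against 5.91 to 6.07 in controls. It overlapped between the groups and differed by 0.21 (SE 0.07, adjusted p = 0.102 by limma). Ccl1, at the far end of the cluster, differed by -0.07 (95% interval -0.17 to 0.03, adjusted p = 0.378). Ccl1 exceeded 40.5% of the negative control rows in knockouts and 42.2% in controls, so it was not measured above background. The flanking genes Asic2, an acid-sensing ion channel gene, and Tmem132e differed by 0.11 and -0.05 (adjusted p = 0.241 and 0.602).

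Of 9 measured genes listed around Ccr2, 1 rose and none fell. This was Ccr1, which encodes a receptor for CCL7 among others and ranged from 4.00 to 4.79 in knockouts, against 3.81 to 4.06 in controls. Knockout 5 lay within the control range, and both groups lay below the median of the negative control rows on every array. The difference was 0.44 (SE 0.11, adjusted p = 0.0351 by limma), and it missed the threshold without any 1 kidney other than knockout 5 (adjusted p = 0.0536 to 0.0793). Ccr3, Ccr1l1, Xcr1, Cxcr6 and Ccr9 had differences of -0.03, 0.09, 0.16, -0.14 and 0.06, none past the threshold. In controls, 6 of the 9 genes, Ccr1 among them, were not measured above background. Ccrl2, Ltf and Rtp3, which lie together further away on the chromosome, differed by 0.11, -0.06 and -0.14 and did not pass either.

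**Figure D3:**
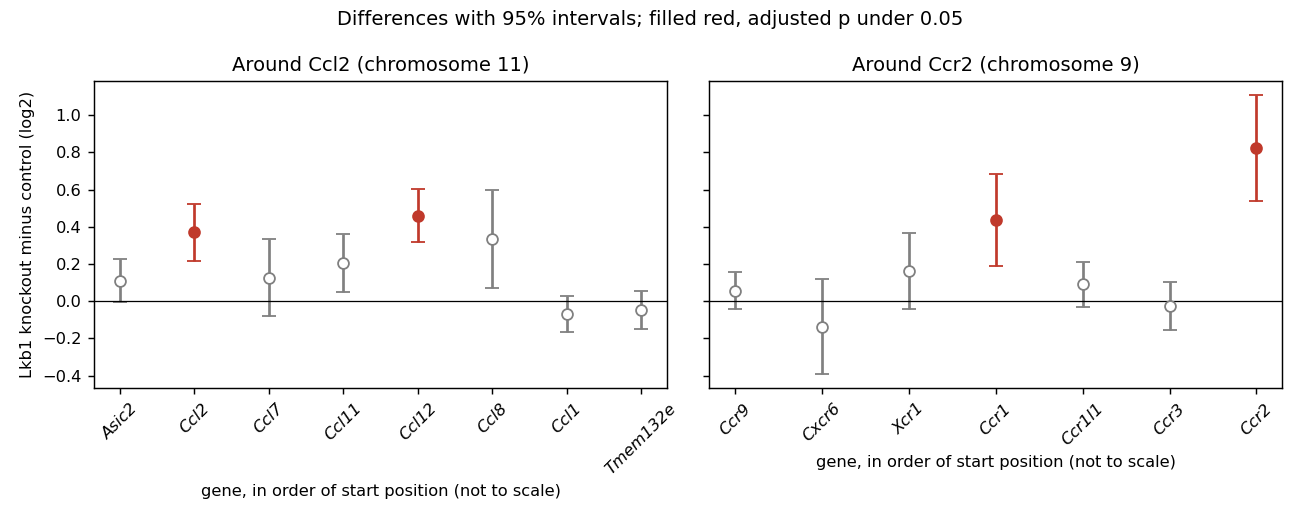
Knockout minus control difference (log2, vertical axis) with its 95% interval for the genes around Ccl2 and around Ccr2, in order of start position and not to scale. Filled red points passed an adjusted p of 0.05: Ccl2 (0.37) and Ccl12 (0.46) on chromosome 11, and Ccr1 (0.44) and Ccr2 (0.83) on chromosome 9.

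Other receptors for these chemokines were measured for 7 of 8 listed genes, and Ccr1 was the member that rose. Their median difference was -0.03, as was the median over all genes. Ccr8, which encodes the receptor described for mouse CCL8, differed by -0.12 (95% interval -0.32 to 0.08). Ccr8 exceeded 25.1% of the negative control rows in knockouts and 27.3% in controls, so it was not measured above background. In controls, 5 of the 7 measured genes, Ccr1 and Ccr8 among them, were not measured above background. The scavenger receptor genes Ackr1, Ackr2 and Ackr4, whose products bind chemokines without the usual G protein signal, differed by -0.10, -0.09 and 0.03 (adjusted p = 0.358, 0.447 and 0.808 by limma). Ackr1 exceeded 46.2% of the negative control rows in knockouts and 48.5% in controls, and Ackr4 47.2% and 46.4%. Neither of them was thus measured above background.

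Some genes known to set Ccl2 expression rose. Of 25 measured inducers and regulators, 4 rose, 0 fell and 21 did not pass, with a median difference of 0.10. Over all genes, 5.22% rose. Rela, the NF-kappaB subunit that binds the Ccl2 gene, differed by 0.42 (adjusted p = 0.00166 by limma), with means of 9.86 ± 0.08 in knockouts and 9.44 ± 0.12 in controls (SD, n = 5 each). Nfkb2, another NF-kappaB subunit gene, differed by 0.25, and Tnfaip3, an inhibitor of NF-kappaB that is itself induced by it, by 0.51. Tgfb1, which encodes a growth factor of fibrosis, differed by 0.33. Tnf, Il1b, Il6, Ifng and Nfkbia, also on this list, differed by 0.11, -0.02, -0.07, -0.02 and 0.15, none past the threshold. Il6 exceeded 10.35% of the negative control rows in knockouts and 11.8% in controls, and Ifng 22.66% and 23.34%. Neither was thus measured above background. Differences were positive for 20 of the 25 genes.

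Signalling genes used by CCR2 included 6 that rose, 0 that fell and 16 that did not pass, out of 22 measured, with a median difference of 0.11. The largest differences were those of Dock2 (0.64), Rac2 (0.53), Pik3cg (0.44) and Vav1 (0.43), which act in the migration of leukocytes and are expressed mainly in blood cells. Dock2 averaged 6.51 ± 0.26 in knockouts and 5.86 ± 0.03 in controls (SD, n = 5 each), an adjusted p of 0.00274 by limma.

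Some markers of cells that carry CCR2 also rose. Of 14 measured markers of classical, Ly6C-high monocytes, 8 rose, 0 fell and 6 did not pass, with a median difference of 0.32. Ms4a6c differed by 1.47, Itgam, the integrin of myeloid cells, by 0.88 and F13a1, a transglutaminase of monocytes and macrophages, by 0.72. Fn1 differed by 1.37 and is also made by fibroblasts. Chil3, a marker of these monocytes, exceeded 20.5% of the negative control rows in knockouts and 22.2% in controls, so it was not measured above background. Chil3, Vcan, Cd177 and Gsr differed by -0.09, -0.24, -0.09 and -0.04, none past the threshold. Vcan exceeded 37.0% of these rows in knockouts and 42.6% in controls, so it was not measured above background either. The differences of the other 10 of the 14 markers were positive. The mean of the list, relative to the control mean, was 0.19 to 0.62 in knockouts and -0.05 to 0.04 in controls.

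Of 13 markers of nonclassical, Ly6C-low monocytes, which carry little CCR2, 2 rose, 0 fell and 11 did not pass, with a median difference of 0.08. The 2 were Cx3cr1, the fractalkine receptor gene that macrophages also express (0.51), and Itgal (0.29). Cx3cr1 missed the threshold without knockout 2 or knockout 3 (adjusted p = 0.052 and 0.0509). Whether the monocyte lists differ from each other was not tested.

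Of 19 measured macrophage markers, 15 rose, 0 fell and 4 did not pass, with a median difference of 0.72. They were led by Lyz2 (2.38), Mpeg1 (1.47), Mrc1 (1.41) and Ctss (1.31), genes of phagocyte enzymes, a pore-forming protein and the mannose receptor. The mean of this list, relative to the control mean, was 0.44 to 1.08 in knockouts and -0.09 to 0.11 in controls. Knockouts 4 and 5 had the lowest macrophage means (0.67 and 0.44) and also the lowest knockout values of Ccr2. Knockout 3 had the highest macrophage mean and the highest Ccl2. Ccl12 did not follow this order: knockout 2, with a macrophage mean of 0.96, had the lowest knockout value of Ccl12 (4.09), and knockout 5 had 4.19. Knockouts 4 and 5 also had the lowest knockout means of the classical monocyte, dendritic cell, T and NK cell and fibroblast lists. The part of these cells in the rises of Ccl2, Ccl12 and Ccr2 was not tested.

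**Figure D4:**
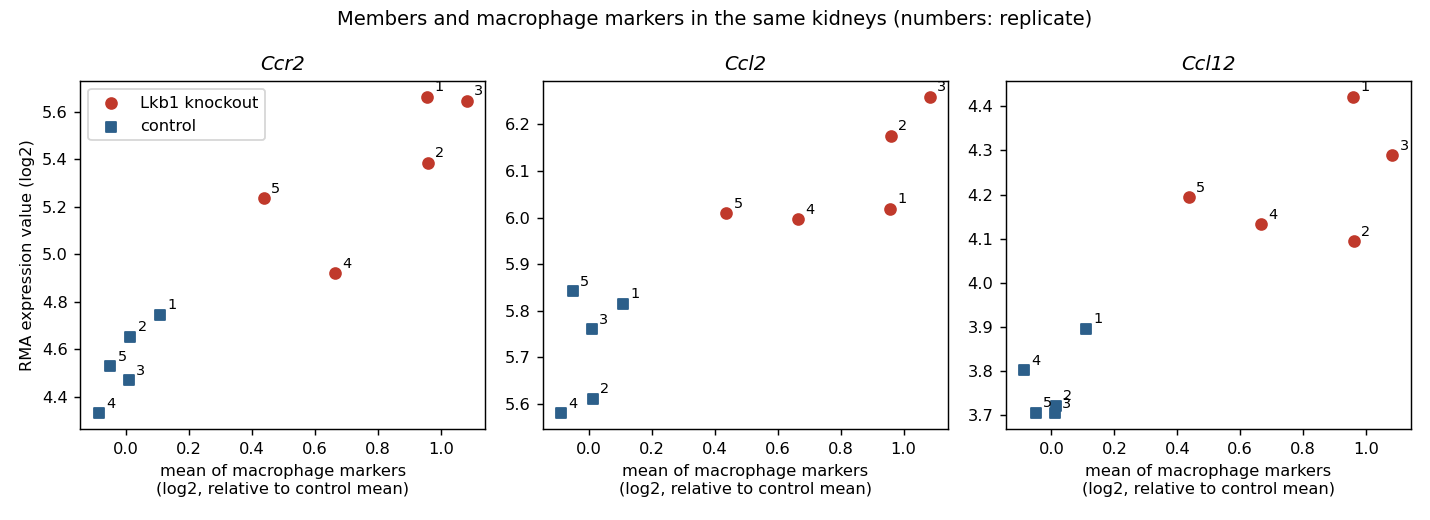
Values of Ccr2, Ccl2 and Ccl12 (log2, vertical axes) against the mean of 19 macrophage markers in the same kidney (log2, relative to the control mean). Red circles are 5 Lkb1 knockout kidneys and blue squares 5 control kidneys, numbered by replicate. The groups are apart on both axes, with macrophage means of 0.44 to 1.08 in knockouts and -0.09 to 0.11 in controls.

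Among other cells that can carry CCR2 or make these chemokines, 3 of 11 measured T and NK cell markers and 3 of 11 dendritic cell markers rose, and none of either list fell. Of all genes, 5.22% rose. Cd4, which macrophages of some tissues also express, differed by 0.95, and Cd209a, a gene of monocyte-derived dendritic cells, by 0.68. Cd3e, part of the T cell receptor complex, differed by 0.33 and missed the threshold without knockout 1, 2 or 3 (adjusted p = 0.0511 to 0.0617). Cd8a, Ncr1 and Nkg7 of the same list differed by -0.05, -0.08 and -0.02, none past the threshold. Batf3 of the dendritic cell list differed by -0.08 and did not pass. Ncr1 exceeded 34.4% of the negative control rows in knockouts and 36.1% in controls, so it was not measured above background. Differences were positive for 8 of the 11 T and NK cell markers and 10 of the 11 dendritic cell markers. Fibroblast markers rose for 8 of 10 measured genes, with a list mean of 0.76 to 1.43 in knockouts and -0.22 to 0.09 in controls, relative to the control mean. Dpt (2.41) and Lum (1.52), both matrix proteins, had the largest differences.

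No endothelial marker (0 of 10) and no B cell marker (0 of 6) passed by limma, although Kdr was lower and Ighm higher (1 marker of each list) at an unadjusted p under 0.05. Kdr passed after quantile normalisation (adjusted p = 0.0446) and without knockout 2 (0.0413), and Ighm without knockout 4 (0.0406). Kit, a receptor gene of mast cells that some kidney epithelial cells also express, fell by 0.25, and no other of 10 neutrophil and mast cell markers passed. In controls, 7 of these 10 markers and 3 of the 6 B cell markers were not measured above background. For those genes, not passing does not show a lack of change. Of 15 markers of tubule segments where the Cdh16 promoter is active, 3 rose, led by Krt18 (0.95), and 5 fell, led by Slc26a4 (-1.13). Of 12 proximal tubule markers, 3 fell and 0 rose, with Slc5a2 at -0.46, which missed the threshold without knockout 1 or 2 (adjusted p = 0.0518 and 0.0522).

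**Figure D5:**
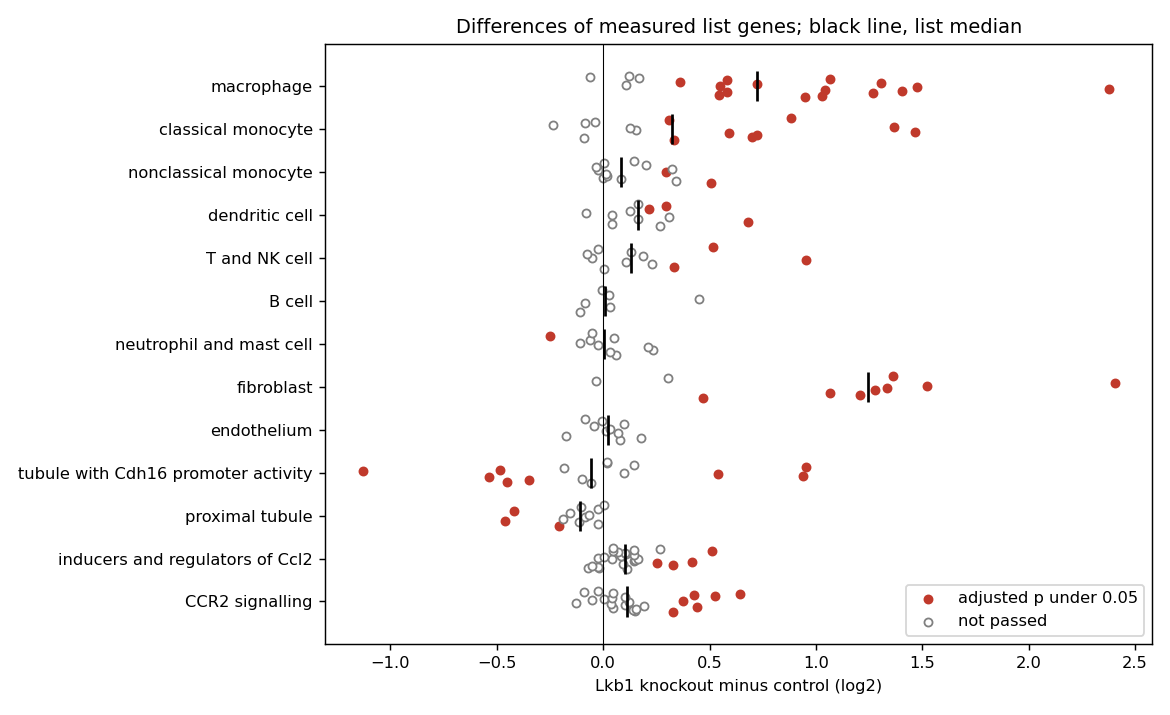
Knockout minus control differences (log2, horizontal axis) of the measured genes of each list, with the list median as a black line. Red points passed an adjusted p of 0.05 and open points did not. The medians of the macrophage, classical monocyte and fibroblast lists are 0.72, 0.32 and 1.24.

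The genes most like each member were sought among genes whose mean exceeded 95% of the negative control rows, by Pearson's r of values over the 10 kidneys. There were 7244 such genes, so the coefficients below are the highest of many. The coefficient of the deviations comes from the same values and is not a separate check. As a description, Ccr2 was most like H2-Eb1, an MHC class II gene of antigen-presenting cells (r = 0.98, and 0.92 for deviations from the group means), Clu (0.96 and 0.85) and Fgg (0.96 and 0.81). Ccl2 was most like Ifngr1, an interferon-gamma receptor gene (0.95 and 0.77), Efhd2 (0.94 and 0.74) and Dtx4 (0.94 and 0.72). Ccl12 was most like Lcp1, an actin-bundling protein of leukocytes (0.96 and 0.72), Aldh1a1 (0.94 and 0.71) and Zfp36l1 (0.93 and 0.56). All 9 of these genes rose in the knockouts, so the first coefficient holds the difference between the groups as well.

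Ccl7 and Ccl8 were most like genes that did not pass. For Ccl7 these were Gipc1 (r = 0.94, and 0.93 for deviations from the group means), Ssh3 (0.83 and 0.80) and Rab12 (0.82 and 0.78). For Ccl8 these were Ctxn1 (0.91 and 0.87), Rpl3-ps2 (0.85 and 0.74) and Gm2877 (0.85 and 0.74), of which Rpl3-ps2 and Gm2877 had knockout values above every control.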

How the data were processed

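The authors deposited 1 log2 value per transcript cluster and array, made with RMA on the mm10 build, per the submitters' processing notes. That the scale is log2 was taken from the range and no software version or filter is given in the sources used here. The table held 72688 rows. Rows were named through the platform annotation, with symbols updated by Entrez identifier; 31216 rows had 1 gene (612 of them under several names of it), 1534 several and 39938 none. Rows of 1 gene were averaged. Knockouts were compared with controls by limma 3.58.1 in R 4.3.3 (lmFit, eBayes with a mean-variance trend), two-sided, with Benjamini-Hochberg adjustment over all 30743 genes and a threshold of 0.05. The fit was tested on simulated data. Exact permutation tests used scipy 1.17.1. The number of arrays limits the precision, and nothing beyond separate mice is stated about replicates.

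The members and lists were chosen with earlier results of these data known. Named genes were the members, Stk11, all measured genes of the cluster and receptor lists, and 3 genes most like each member. From each other list, up to 4 past the threshold were named, or the 2 with the smallest p. Chil3, Vcan, Cd177, Gsr, Cd8a, Ncr1, Nkg7, Batf3, Tnf, Il1b, Il6, Ifng and Nfkbia were named after their values were seen. Alternatives were quantile normalisation, a filter on dim genes, no trend, array weights, the brightest row, a replicate block and leaving out each kidney. Promoter sequences are from RefSeq, GRCm38.p6, where 3 of the 5 members matched by symbol.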

Additional observations from a re-analysis of the deposited data

How the results depend on the processing

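Ccl2, Ccl12, Ccr2 and Stk11 kept their direction and passed under each alternative in which they were tested, and Ccl7 passed under none. Without each kidney in turn, differences ran from 0.33 to 0.40 for Ccl2, 0.06 to 0.21 for Ccl7, 0.22 to 0.40 for Ccl8, 0.41 to 0.49 for Ccl12, 0.75 to 0.94 for Ccr2 and -0.28 to -0.22 for Stk11. With a replicate block, Ccl8 passed (difference 0.34, adjusted p = 0.0374); the labels do not say that a number marks a shared litter, same-numbered kidneys had correlations of deviations from -0.08 to 0.32 over all genes, and not every kidney correlated best with its own number. Under the block 1825 genes rose and 972 fell, against 1604 and 822 in the unpaired fit, and no other call among the 5 genes changed. Leaving out dim genes removed Ccl7, Ccl8, Ccl12 and Ccr2 from the test, so the members called came to 1 in place of 3, by construction. Quantile normalisation gave 1273 falling genes, so that 56.1% of calls were rises, against 66.1% as deposited. Without each kidney, falling genes ran from 441 to 1468 and rising genes from 1081 to 1935, with the highest counts without knockout 5; the cause was not tested. Ccr3, which did not pass, reversed to 0.0163 after quantile normalisation and 0.0098 with array weights, and ran from -0.0657 to 0.0021 without each kidney; Ackr4 ran from -0.0153 to 0.0461. Dendritic cell markers that rose numbered 6 after quantile normalisation or without knockout 5, and 5 without knockout 4, with array weights or with the block; nonclassical monocyte markers numbered 1 without knockout 2 or 3; proximal tubule markers that fell numbered 5 after quantile normalisation. Signal near the negative control rows limits how large a difference in Ccl7, Ccl8, Ccl12 and Ccr2 these arrays can show.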
